A study of Mus musculus with 4 samples.

Results

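Tob1, Tob2, Btg1, Btg2, Rgcc, Klf2 and Pnrc1 are 7 genes linked to slow growth and quiescence, and their RNA was followed in leukocytes of the mouse colon. They were found by symbol among the 31053 genes of the count tables, where each symbol stands for 1 gene. The libraries came from WT C57BL/6 mice that had 7 days of daily restraint (stress) or of control treatment, with 2 libraries per group. CD45+ leukocytes had been sorted from total colon and run on the 10x Genomics platform. The labels give no age or sex and do not say how many mice went into a library or whether replicates came from separate mice, so p-values measure the spread between these libraries, which may be technical. The 7 genes were chosen by measured values of these same libraries, in part by the control and stress levels summed over all cells. The level of Tob1 and of Rgcc over all cells and that of Rgcc in macrophages are therefore given as a description, and the stress and control values of these 2 genes in other cell classes come from the same libraries and are no independent support.

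The BTG/TOB proteins (Btg1, Btg2, Tob1 and Tob2) bind the deadenylases of the CCR4-NOT complex, which shorten the poly(A) tails of mRNAs, and they restrain the growth of lymphocytes. Klf2 is a transcription factor that keeps naive lymphocytes resting and recirculating, in part through S1pr1. Rgcc (regulator of cell cycle) is a complement response gene whose protein binds the kinase CDK1, and Pnrc1 is a nuclear receptor coactivator that also has a role in mRNA decapping.

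The 4 libraries held 2941 to 10259 barcodes, and 2509 (control 1), 5356 (control 2), 7777 (stress 1) and 4001 (stress 2) passed the filters, with a median of 2091 to 4419 UMIs per cell. A UMI is a tag that lets each captured RNA molecule be counted once. The share of barcodes removed for more than 10% mitochondrial UMIs was 12.9% and 11.1% in the controls and 18.8% and 25.99% in the stress libraries, and 35 kept barcodes were found in more than 1 library. Control 1 held 240 fibroblast-like cells, against at most 18 in any other library, although the cells were sorted for CD45. Ptprc, the gene of CD45, was at 392 to 1579 CPM (UMIs per 1000000 UMIs of the summed cells) in the 11 classes other than plasma cell-like cells, and at 44.2 to 61.8 CPM in those.

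Cells were clustered without the 7 genes, and clusters were named from fixed markers. Of the classes, 12 had at least 30 cells in each library: B cell-like, plasma cell-like, T cell-like, NK or ILC1-like, monocyte-like, macrophage-like, cDC2-like, cDC1-like and 4 clusters left without a name. Among their leading genes were Gzma, Ccl5 and Cd160 in cluster 7, Il17a, Il22 and Il17f in cluster 8, Tnfrsf4, Il10 and Foxp3 in cluster 14, and Pclaf, Stmn1 and Mki67 in cluster 10. Clusters 7, 8 and 14 carry T cell markers. The kept cells held 112215 UMIs of Btg1, 51093 of Pnrc1, 48962 of Btg2, 39472 of Klf2, 12277 of Tob2, 12161 of Rgcc and 3693 of Tob1. The pseudogenes Btg1-ps1 and Btg1-ps2 had 0 UMIs. Of the other family genes, Btg3 had 1125 UMIs and Btg4 had 1.

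The genes lie on 7 chromosomes (GRCm38): Tob1 at chr11:94211454-94215495, Tob2 at chr15:81848272-81858796, Btg1 at chr10:96617006-96622809, Btg2 at chr1:134075170-134079120, Rgcc at chr14:79288756-79301645, Klf2 at chr8:72319033-72321656 and Pnrc1 at chr4:33245423-33290163. All 7 are protein-coding. The sequence just upstream of the start of Tob1 and of Rgcc is shown because these were the 2 members with low stress values in the most cell classes. Both are from RefSeq on GRCm38.p6, 5′ to 3′ on the gene's own strand, and end at the base before the annotated start. The Tob1 stretch has 250 bases and the Rgcc stretch 240. The RefSeq start used for the motifs below can differ from the annotated start. Tob1 is chr11:94211204-94211453 (plus strand) and Rgcc is chr14:79301646-79301885 (minus strand). The capitals mark a TATAAA match.
Tob1: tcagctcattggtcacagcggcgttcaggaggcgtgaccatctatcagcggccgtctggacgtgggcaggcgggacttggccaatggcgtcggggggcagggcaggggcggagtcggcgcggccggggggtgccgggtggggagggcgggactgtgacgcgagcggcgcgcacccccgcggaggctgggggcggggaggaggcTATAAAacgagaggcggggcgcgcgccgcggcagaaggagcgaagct
Rgcc: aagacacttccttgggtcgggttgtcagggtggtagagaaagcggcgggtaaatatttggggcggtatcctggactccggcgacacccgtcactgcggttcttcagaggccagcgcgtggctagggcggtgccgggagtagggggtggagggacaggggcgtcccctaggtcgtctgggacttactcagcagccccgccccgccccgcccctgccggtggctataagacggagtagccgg
The Tob1 window is 73.6% G and C and the Rgcc window 65.8%, against a median of 52.4% over the upstream windows of 32851 genes. Motifs were searched on both strands over 250 bases before the RefSeq start, and those found did not overlap. For Tob2 and Pnrc1 these bases lie inside the gene as annotated above, so only the other 5 genes are described. TATAAA began 47 bases before the start of Tob1 and 26 bases before that of Btg1, and 12.4% of all windows hold it. The cAMP response element TGACGTCA began 166 bases before Btg2 alone of the 5 (1.55% of all windows), and the FOXO motif TGTTTAC 204 bases before Btg1 alone (3.17%). The palindromic glucocorticoid receptor motif (0.387% of all windows) and the CArG box (1.47%) had no match in the windows of these 5 genes. A match is a run of letters, not a shown binding site.

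The levels of the 7 genes differed more between cell classes than between libraries of a class for some members and not for others. CPM values of a 3′ tag assay are compared here between classes for 1 gene at a time, never between genes. Immunoglobulin genes took 65.7% to 70.4% of the UMIs of plasma cell-like cells, which lowers the CPM of every other gene there. The place of plasma cell-like cells in these orders therefore depends on scaling to all UMIs. Plasma cell-like cells were at the bottom for Tob2 and Btg1. Tob2 was at 8.94 to 14.4 CPM there, against 41.0 to 423 CPM in the 11 other classes. Btg1 was at 19.7 to 49.6 CPM in plasma cell-like cells, against 504 to 2905 CPM elsewhere. No plasma cell-like value of either gene reached the range of another class. At the next step up, cluster 10 also stood apart for both genes, with 41.0 to 76.0 CPM of Tob2 and 504 to 630 CPM of Btg1. For Btg2, the pair of cluster 10 and plasma cell-like cells was lowest in CPM (120 to 192 and 127 to 171 CPM, overlapping each other). NK or ILC1-like cells (825 to 1729 CPM) and cluster 7 (1216 to 1520 CPM) had the most Btg2. They overlapped, and cluster 7 lay above all 4 values of cluster 8, the third in the order.

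**Figure D1:**
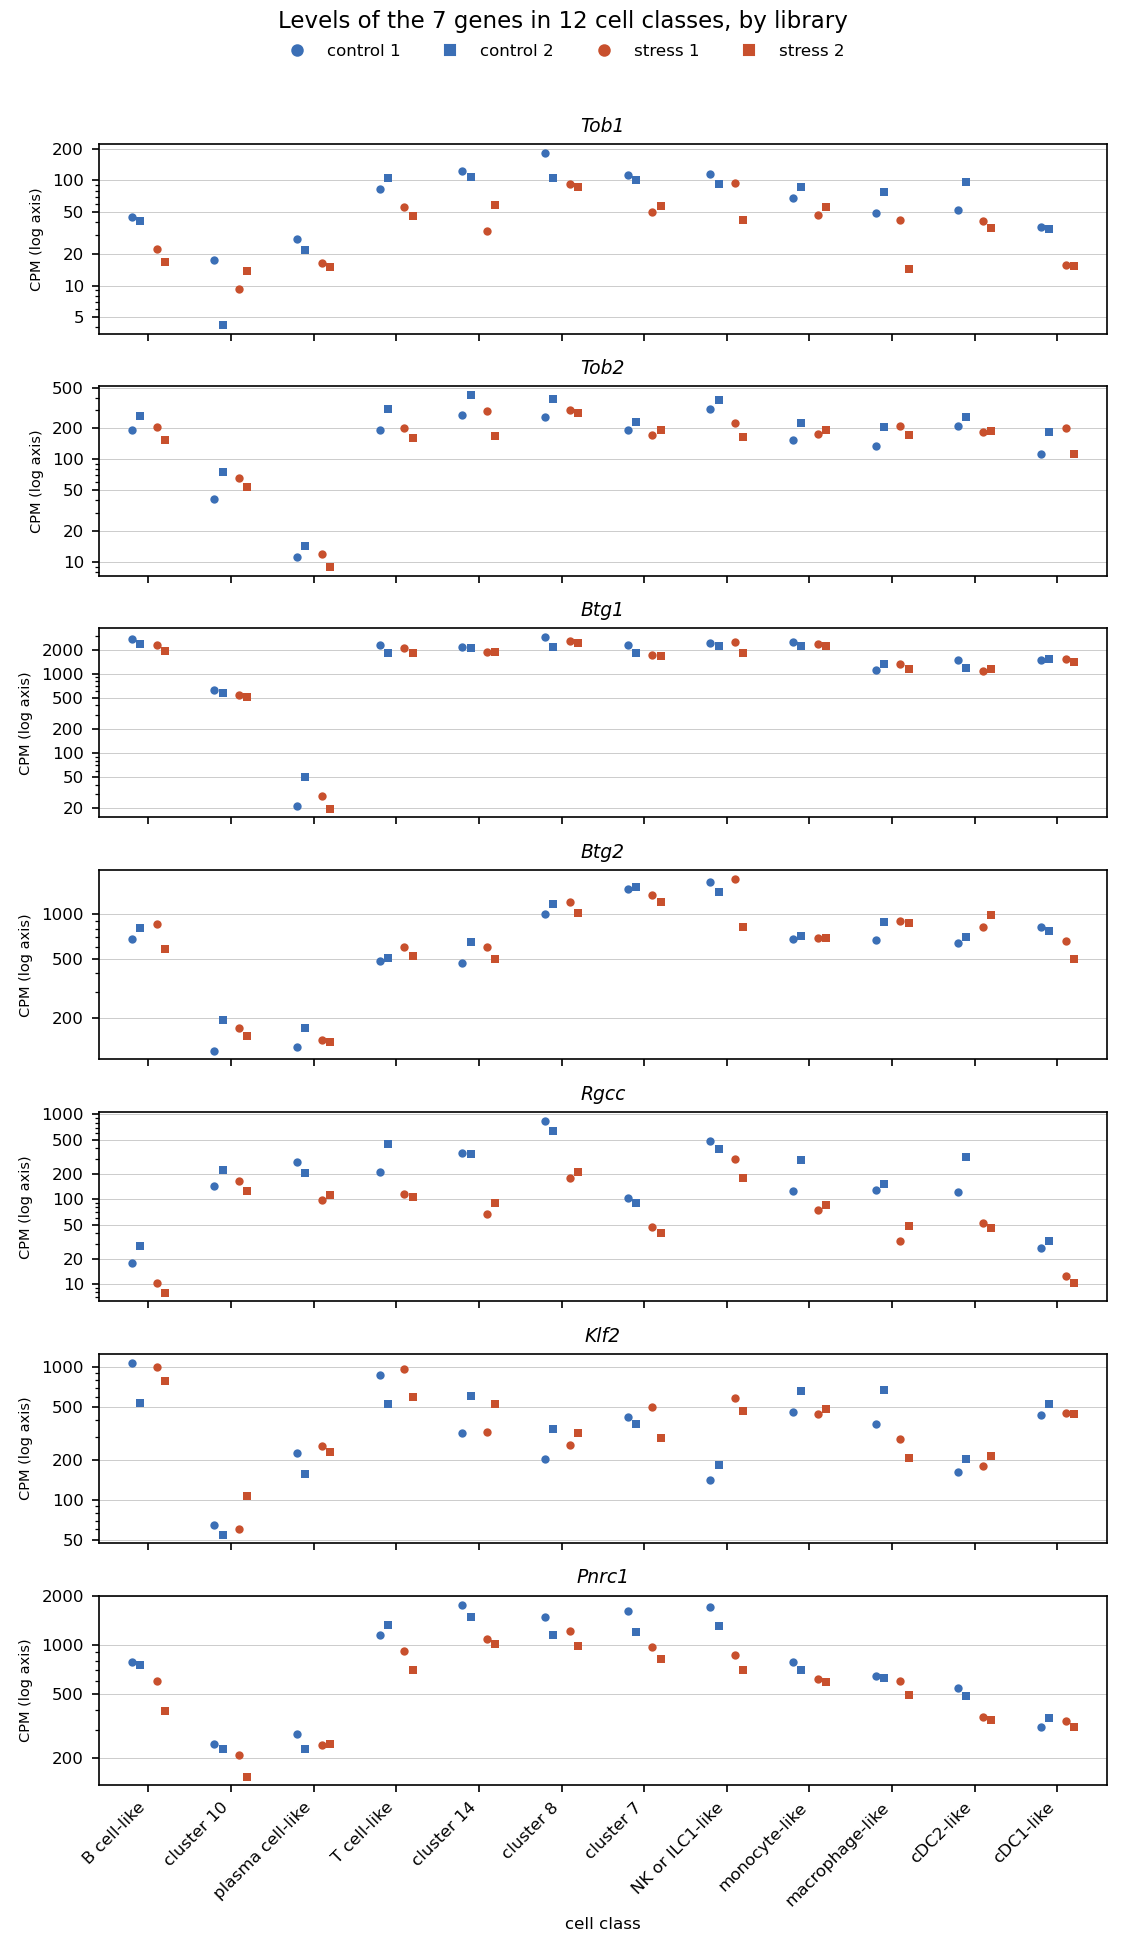
Each panel plots the level of 1 gene in CPM (log axis) in 12 cell classes, with 1 point per library: blue for control, red for stress, circles for replicate 1 and squares for replicate 2. Plasma cell-like cells lie far below the others for Tob2 (8.94 to 14.4 CPM) and Btg1 (19.7 to 49.6 CPM), B cell-like cells are at the bottom for Rgcc (7.91 to 27.8 CPM), and cluster 10 is at the bottom for Klf2 (54.9 to 107 CPM). Immunoglobulin UMIs lower the CPM of other genes in plasma cell-like cells.

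Rgcc had another order. It was highest in cluster 8, at 177 to 842 CPM, followed by NK or ILC1-like cells at 178 to 489 CPM. B cell-like cells (7.91 to 27.8 CPM) and cDC1-like cells (10.3 to 32.1 CPM) were at the bottom, overlapped each other and lay below all 4 values of every other class. The B cell-like level was 8.63% to 13.1% of the level over all cells of the same library, and the part of free RNA in these low values was not tested. Klf2 was highest in B cell-like cells (540 to 1083 CPM) and T cell-like cells (532 to 976 CPM) and lowest in cluster 10 (54.9 to 107 CPM), which lay below all values of the other 11 classes. The B cell-like level includes a heat shock cluster with high Klf2, described below. Pnrc1 had its highest median in cluster 14 (1015 to 1773 CPM), a range that overlapped those of cluster 8, NK or ILC1-like cells, cluster 7 and T cell-like cells. In CPM it was lowest in cluster 10 (155 to 246 CPM) and plasma cell-like cells (229 to 284 CPM), which overlapped. The low rank of plasma cell-like cells again depends on scaling to all UMIs. For Tob1, from cluster 8 (85.8 to 182 CPM) down to cluster 10 (4.22 to 17.6 CPM), each class overlapped the next in the order of medians.

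The change from B cell-like to plasma cell-like cells was tested with library as a block, so that each library served as its own control. Of the 9585 genes tested, 69.7% passed the threshold (edgeR's quasi-likelihood test, Benjamini-Hochberg adjusted p under 0.05), so the count of 6 of 7 members is close to the background. The members went in opposite directions. Btg1 went from 2713, 2343, 2320 and 1940 CPM in B cell-like cells to 21.6, 49.6, 28.7 and 19.7 CPM in plasma cell-like cells (control 1, control 2, stress 1, stress 2). This was a log2 difference of -4.82 ± 0.24 (edgeR adjusted p = 0.000113). Here and below, the value after ± is an approximate SE: the size of the log2 value over the square root of the test's F statistic. Tob2 was lower by -2.57 ± 0.10 (adjusted p = 1.01e-15, edgeR), Btg2 by -0.78 ± 0.08 and Klf2 by -0.39 ± 0.07.

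Rgcc was the member with the largest rise in plasma cell-like cells, from 17.7, 27.8, 10.2 and 7.91 CPM to 276, 202, 97.9 and 111 CPM. The groups did not overlap, and the log2 difference was 4.91 ± 0.21 (edgeR adjusted p = 6.09e-07). Immunoglobulin genes took 65.7% to 70.4% of the UMIs of plasma cell-like cells and 1.12% to 1.44% of those of B cell-like cells. Tob1 was higher in plasma cell-like cells by 1.03 ± 0.13 (adjusted p = 3.68e-07, edgeR) under TMM scaling, which sets the bulk of genes equal, but lower by log2 -0.53 when scaled to all UMIs, which moved the median of all genes from -0.06 to -1.60. Without immunoglobulin genes in the library size the value was 1.10. Pnrc1, at 0.27 ± 0.20, did not pass the threshold, and it too changed sign, to -1.29, when scaled to all UMIs. The directions of Btg1, Tob2, Btg2, Klf2 and Rgcc were the same under all 3 scalings.

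Germinal centre B cell-like cells (cluster 13, with Rgs13 and Mef2b among its leading genes) had few cells in control 1 and control 2 (27 and 38), against 215 and 107 in the stress libraries, so they were compared with B cell-like cells within libraries and not between groups. This pair was added after the data were seen. All 7 members passed the threshold, where 52.1% of 7819 genes did. Klf2 was lower by log2 -3.22 ± 0.11 (edgeR adjusted p = 1.53e-36), at 40.03 to 133 CPM against 540 to 1083 CPM. Tob2 (-1.95), Btg2 (-1.83), Pnrc1 (-1.59), Btg1 (-1.54) and Tob1 (-1.49) were lower as well. Rgcc was higher by 2.72 ± 0.18 (edgeR adjusted p = 1.95e-17), at 93.5 to 129 CPM against 7.91 to 27.8 CPM. All 6 tested trafficking genes linked to Klf2 were lower, among them Ccr7 (-5.71), a chemokine receptor of naive cells, and S1pr1 (-4.47), the receptor for exit from lymphoid tissue.

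**Figure D2:**
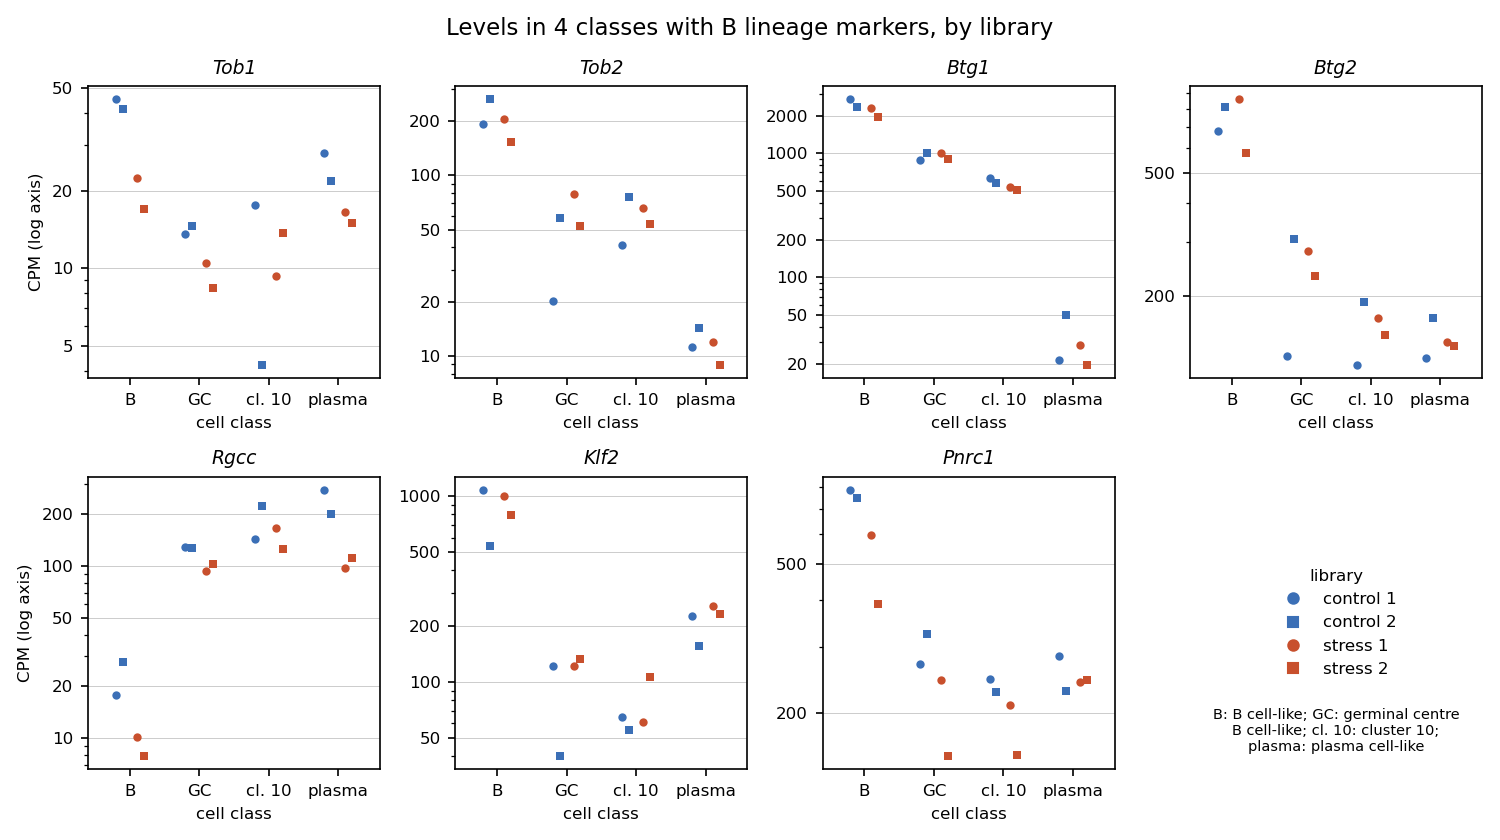
Each panel plots the level of 1 gene in CPM (log axis) in B cell-like cells, germinal centre B cell-like cells, cluster 10 and plasma cell-like cells, with 1 point per library (blue control, red stress). Klf2 in germinal centre B cell-like cells (40.03 to 133 CPM) lies below all 4 B cell-like values (540 to 1083 CPM), whereas Rgcc is higher in all 3 other classes than in B cell-like cells.

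Cluster 10, whose leading genes are those of dividing cells, was set beside germinal centre B cell-like cells in the same way, also after the data were seen. Tob1 was too low to be tested. Of the 6 members tested, 4 passed, against 27.1% of 6136 genes: Btg1 (-0.80), Btg2 (-0.64) and Klf2 (-0.58) were lower in cluster 10 and Rgcc (0.58) was higher. The calls of Klf2 and Rgcc ended without stress 1 (log2 -0.31 and 0.42, edgeR adjusted p = 0.291 and 0.0599) and with DESeq2.

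Cells in division were then gated by a UMI in at least 3 of 10 mitotic genes, none of them a member, and compared with cells that had none of the 10. Among cells of clusters with B cell markers there were 455 dividing and 8693 other cells, and 521 cells in between were left out. All 7 members passed the threshold, where 65.1% of 8508 genes did. Klf2 was lower in dividing cells by log2 -3.73 ± 0.25 (edgeR adjusted p = 4.13e-05), at 32.0 to 113 CPM against 542 to 1081 CPM. Btg2 (-2.36), Btg1 (-2.23), Tob2 (-1.91), Pnrc1 (-1.78) and Tob1 (-1.46) were lower too, each in 4 of 4 libraries. Rgcc was higher in dividing cells in 4 of 4 libraries, at 133, 207, 160 and 123 CPM against 18.4, 29.2, 14.96 and 9.40 CPM, a log2 difference of 3.002 ± 0.14 (edgeR adjusted p = 1.26e-17). Most of these dividing cells, 90.1%, were in cluster 10, so dividing cells and that cluster cannot be told apart here. Summed germinal centre B cell markers were at 1313 to 1539 CPM in cluster 10 and at 32.3 to 47.6 CPM in B cell-like cells. Division and germinal centre identity therefore cannot be told apart in this comparison either.

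In dividing cells of B clusters, 11 of the 13 tested regulators linked to quiescence were lower past the threshold, among them Klf3 (-4.10), Slfn2 (-2.68) and Tsc22d3 (-2.38). The median of the list was -1.44, against -0.05 for all genes. These counts stand against 65.1% of all genes called in either direction. Immediate early and dissociation genes were lower in 22 of 25 tested, among them Hspa1b (-3.76) and Junb (-2.86), and their part in the members' values was not tested. Of the 15 deadenylase and poly(A) binding genes, with which the BTG/TOB proteins work, 6 were higher (such as Cnot9, 1.87) and 3 were lower (such as Pan3, -0.65), a share near that of all genes. Of the 4 CDK inhibitors tested, 2 were lower, such as Cdkn1b (-2.74), and 2 were higher, such as Cdkn2c (2.52). Over all kept cells, with 668 dividing and 16922 other cells, 6 members were lower, at log2 values from -2.01 (Klf2) to -0.70 (Tob1), where 26.4% of 10825 genes were called lower and 50.8% in either direction. Tob1 lost its call under both other scalings, with no filter on low counts and without control 1, control 2 or stress 1 (edgeR adjusted p from 0.0561 to 0.196 without these libraries). Rgcc was at 0.10 ± 0.17 and was higher in 3 of 4 libraries.

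T cell-like cells had more Rgcc than B cell-like cells by log2 3.72 ± 0.14 (edgeR adjusted p = 5.51e-15), more Tob1 by 1.26 ± 0.14 and more Pnrc1 by 0.66 ± 0.10, where 40.3% of 9264 genes passed. Rgcc was at 210, 448, 115 and 106 CPM in T cell-like cells and at most 27.8 CPM in B cell-like cells. Btg2 was lower by -0.52 ± 0.10, but it was higher by 0.32 where cells were gated 1 by 1 on markers in place of clusters. That gate is another set of cells: beside 2275 cells of the T cell-like class it took in 965, 947 and 337 of clusters 7, 8 and 14. Clusters 7 and 8 had 1216 to 1520 and 1003 to 1207 CPM of Btg2, against 482 to 602 CPM in T cell-like cells. The part of these cells in the change of sign was not tested. Btg1 was lower by -0.26 ± 0.10 (edgeR adjusted p = 0.0413), a call that ended without control 1 (-0.21), control 2 (-0.21) or stress 1 (-0.28), with DESeq2 (-0.24) and with the marker gate (-0.12). Klf2 (-0.24) and Tob2 (0.03) did not pass. Macrophage-like cells had less Btg1 than monocyte-like cells by -0.86 ± 0.09 (edgeR adjusted p = 1.21e-07), at 1124 to 1328 CPM against 2203 to 2498 CPM with no overlap, where 17.4% of 5809 genes passed. The lower Rgcc (-0.59) and higher Btg2 (0.30) of macrophage-like cells passed but lost their calls without control 2, stress 1 or stress 2 (edgeR adjusted p from 0.130 to 0.236) and with DESeq2 (adjusted p = 0.138 and 0.137), and Btg2 also under both other scalings and with no filter on low counts.

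The question of the design was what daily restraint does to colon leukocytes. Over the sum of all kept cells, Tob1 was at 62.8 and 62.3 CPM in the controls and 28.3 and 25.7 CPM in the stress libraries. Rgcc was at 205 and 212 CPM against 83.4 and 89.6 CPM. These sums mix cell classes in different shares. Plasma cell-like cells made up 7.21% and 2.46% of control cells and 10.9% and 14.7% of stress cells. Their Tob1 is low in CPM, a scale on which immunoglobulin UMIs lower every other gene. Immunoglobulin genes took 20.3% and 10.1% of the UMIs of all kept cells in the controls and 28.1% and 33.3% in the stress libraries. In summed cells, fewer cells of a class and less RNA per cell cannot be told apart. Both stress libraries lay below both controls for 6 of the 7 members in this sum, and so did 33.4% of all genes. As this sum helped choose the members, that count is a description and no support. No gene of 13143 passed the threshold there with edgeR (891 had an unadjusted p under 0.05), whereas DESeq2 called 135. The edgeR count was 2800 without control 1, 3303 without control 2 and 0 without stress 1 or without stress 2.

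Within the 12 classes, stress and control were compared for 84 pairs of a member and a class. Rgcc in macrophage-like cells helped choose the gene and is left out of the count of calls. Of the other 83 pairs, 8 were lower and 1 was higher past the threshold, while the share of all genes that passed was 0% to 1.35% per class. That share was 1.35% in T cell-like, 0.287% in B cell-like, 0.0738% in NK or ILC1-like, 0.832% in plasma cell-like, 0.16% in monocyte-like, 0.273% in macrophage-like, 0.834% in cDC2-like and 0.115% in cDC1-like cells. It was 0.689% in cluster 7, 1.1% in cluster 8, 0.145% in cluster 14 and 0% in cluster 10 (edgeR, 0 genes, 298 at an unadjusted p under 0.05). Rgcc accounts for 5 of the lower values, Tob1 for 3, and Klf2 for the higher one. Rgcc and Tob1 were chosen in part by stress and control levels summed over these same cells. The share of all genes is therefore no background for their 8 calls, which are no independent support. Tob2, Btg1, Btg2 and Pnrc1 passed in no class. As a description, both stress libraries lay below both controls in 11 of 12 classes for Rgcc, 10 for Tob1, 9 for Pnrc1, 5 for Btg1, 2 each for Tob2 and Btg2 and 1 for Klf2. Among all genes, this order was shown by 11.6% in T cell-like, 15.7% in B cell-like, 20.2% in NK or ILC1-like, 15.3% in plasma cell-like, 17.4% in monocyte-like, 15% in macrophage-like, 18.1% in cDC2-like and 17.2% in cDC1-like cells. In clusters 7, 8, 14 and 10 the share was 16.9%, 15.8%, 15.1% and 13.9%. Both stress libraries lay above both controls in 2 classes each for Btg2 and Klf2, an order shown by 15.7% to 27.1% of all genes per class. The classes share the same libraries, so these shares per class are no background for a count of classes.

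**Figure D3:**
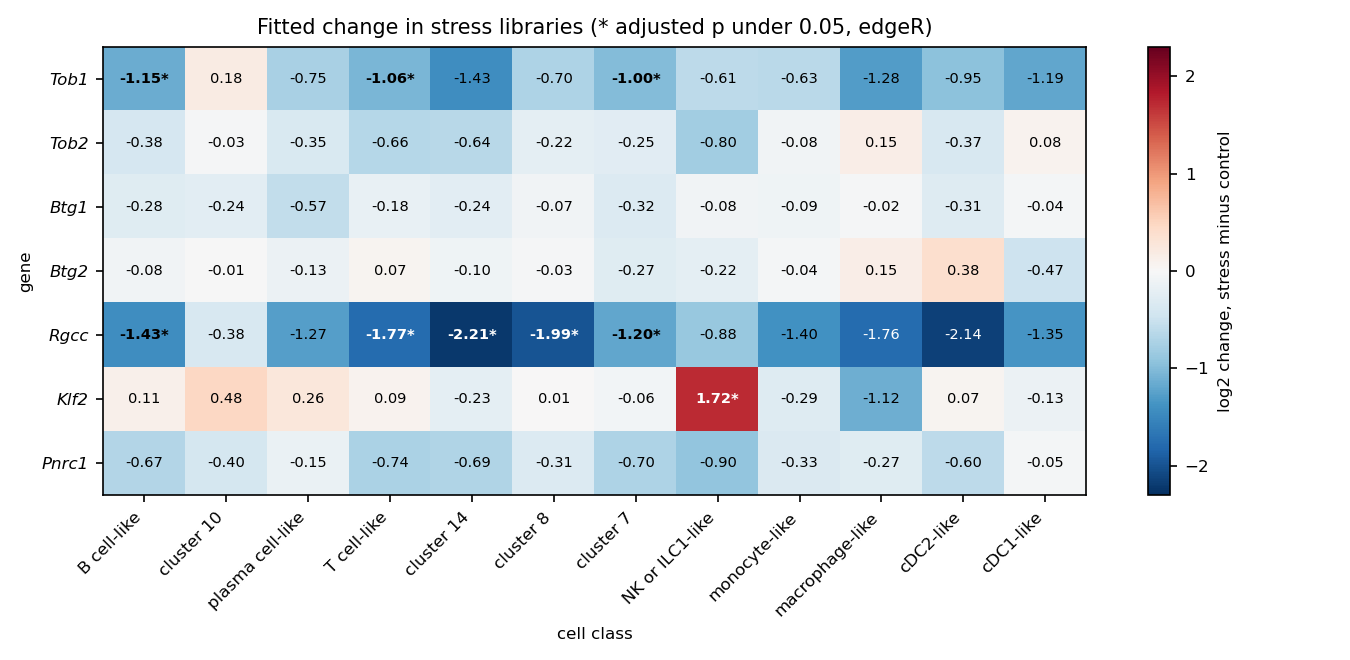
The colour and number of each cell give the fitted log2 change, stress minus control, of 1 gene (vertical axis) in 1 cell class (horizontal axis); bold with an asterisk marks an edgeR adjusted p under 0.05, other than for Rgcc in macrophage-like cells, which is shown as a description. The Rgcc line is negative in all 12 classes, from -2.21 in cluster 14 to -0.38 in cluster 10, and the only strong positive value is Klf2 in NK or ILC1-like cells, at 1.72.

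Rgcc was lower past the threshold in clusters 7, 8 and 14, T cell-like and B cell-like cells. In cluster 8, the Il17a cluster, it was at 842 and 640 CPM in the controls and 177 and 210 CPM in the stress libraries. The groups were far apart, and the log2 change was -1.99 ± 0.18 (edgeR adjusted p = 1.14e-07), with 0.46% of genes called lower in that class. The call held under each alternative tried. In cluster 14, the Foxp3 cluster, Rgcc was at 349 and 342 CPM against 66.2 and 91.1 CPM (-2.21 ± 0.30, edgeR adjusted p = 0.00321, with 0.0969% of genes called lower). That call ended with the replicate number as a block (-2.20, adjusted p = 0.150, edgeR). Summed plasma cell markers were at 164 and 125 CPM in the controls and 717 and 650 CPM in the stress libraries in cluster 8, at 220 and 155 against 2265 and 717 CPM in cluster 14 and at 120 and 159 against 315 and 460 CPM in T cell-like cells, and their part in the result was not tested. The stress plasma cell-like cells themselves had 97.9 and 111 CPM of Rgcc.

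T cell-like cells had 210 and 448 CPM of Rgcc in the controls and 115 and 106 CPM in the stress libraries (-1.77 ± 0.30, edgeR adjusted p = 0.0111; 0.484% of genes called lower). The call ended with DESeq2 (-1.72, adjusted p = 0.753), without control 2 (-0.99, adjusted p = 0.0814, edgeR), with the marker gate (-1.76, adjusted p = 0.249, edgeR) and with equal cells (-1.85, adjusted p = 0.0970, edgeR); control 1 held 93 T cell-like cells against 1302 in control 2. In each of the 3 T clusters (3, 9 and 11), the stress values lay below both controls, for example 62.5 and 71.5 against 135 and 127 CPM in cluster 11. In cluster 7, the Gzma cluster, Rgcc was at 104 and 90.7 CPM against 47.4 and 40.3 CPM (-1.20 ± 0.21, edgeR adjusted p = 0.0135; 0.427% of genes called lower). This call ended without stress 2 (-1.06), with equal cells (-0.99, adjusted p = 0.0929, edgeR), with the replicate block (-1.19, adjusted p = 0.0531, edgeR) and with DESeq2 (-1.20, adjusted p = 0.183). Summed NK or ILC1 markers in cluster 7 were at 5096 and 4200 CPM in the controls and 11130 and 10024 CPM in the stress libraries, and their part in the result was not tested.

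B cell-like cells, where Rgcc is lowest, had 17.7 and 27.8 CPM in the controls and 10.2 and 7.91 CPM in the stress libraries (-1.43 ± 0.24, edgeR adjusted p = 0.00376; 0.144% of genes called lower). These values rest on 226 control and 106 stress UMIs. The call ended without control 2 (-1.01, adjusted p = 0.218, edgeR), with doublets kept (-1.23, adjusted p = 0.150, edgeR), with the marker gate (-0.78, adjusted p = 0.123, edgeR) and with DESeq2 (-1.39, adjusted p = 0.0983). In proportion to the level over all cells of each library, B cell-like Rgcc was at 8.63% and 13.1% in the controls and 12.3% and 8.83% in the stress libraries, with no order between groups. The same proportion overlapped between groups in T cell-like cells (102% and 211% against 138% and 119%) and cluster 7 (50.4% and 42.8% against 56.8% and 44.96%). It was lower in both stress libraries in cluster 8 (409.8% and 302% against 213% and 235%) and cluster 14 (169.9% and 161% against 79.3% and 102%). The level over all cells helped choose Rgcc and was itself lower in both stress libraries, so a fall within a class is offset in this proportion. The proportion therefore cannot show whether Rgcc changed within a class. Summed T cell markers in B cell-like cells were at 22.6 and 34.7 CPM in the controls and 37.2 and 42.1 CPM in the stress libraries.

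Macrophage-like cells had 128 and 150 CPM of Rgcc in the controls and 32.4 and 48.7 CPM in the stress libraries, a fitted change of -1.76 (0.17% of genes called lower). That value helped choose the gene. Summed T cell markers in the same sums were at 141 and 651 CPM in the controls and 39.3 and 128 CPM in the stress libraries, and their part was not tested. Plasma cell-like cells (276 and 202 against 97.9 and 111 CPM, -1.27, edgeR adjusted p = 0.0646) and cDC2-like cells (122 and 315 against 51.9 and 45.5 CPM, -2.14, edgeR adjusted p = 0.0665) missed the threshold without overlap between groups. Both passed with DESeq2 (adjusted p = 0.000405 and 0.00195), with no filter on low counts and without each of the 4 libraries in turn (edgeR). Summed T cell markers in cDC2-like cells were at 147 and 370 CPM in the controls and 17.8 and 62.0 CPM in the stress libraries, with 9 of 10 markers lower in both stress libraries, and their part was not tested. Cluster 10 was the class where the groups overlapped: 143 and 224 CPM in the controls, 166 and 126 CPM in the stress libraries. ILC2-like cells, too few to test with 17 to 91 cells per library, were at 902 and 525 against 211 and 250 CPM.

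Tob1, the antiproliferative family member first described as a partner of the receptor tyrosine kinase ErbB2, was lower past the threshold in 3 lymphoid classes. In B cell-like cells it was at 45.1 and 41.4 CPM in the controls and 22.4 and 16.9 CPM in the stress libraries. The groups did not overlap, the log2 change was -1.15 ± 0.20 (edgeR adjusted p = 0.00455), and the values rest on 371 control and 230 stress UMIs. Without stress 2 the call ended (-0.97, adjusted p = 0.104, edgeR). In proportion to the level over all cells of each library the groups overlapped, at 71.9% and 66.4% in the controls and 79.1% and 65.95% in the stress libraries. That level helped choose Tob1 and was itself lower in both stress libraries, so this proportion cannot show whether Tob1 changed within a class. The stress values lay below both controls in B clusters 0, 1 and 6, and overlapped in cluster 5, where control 2 was at 5.87 CPM, which is 1 UMI.

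In T cell-like cells Tob1 was at 83.4 and 105 CPM in the controls and 56.3 and 46.0 CPM in the stress libraries (-1.06 ± 0.25, edgeR adjusted p = 0.0365). This call ended without control 2 (-0.74), stress 1 (-1.24) or stress 2 (-0.89), with the marker gate (-0.94), with equal cells (-0.93), with the replicate block (-1.04) and with DESeq2 (-1.04). In proportion to all cells, Tob1 was at 133% and 169% in the controls and 199% and 179% in the stress libraries. As the level over all cells was itself lower in both stress libraries, this order does not show a rise in the class. In cluster 7 Tob1 was at 112 and 101 CPM against 49.7 and 57.5 CPM (-1.003 ± 0.20, edgeR adjusted p = 0.0301). The cluster 7 call ended without stress 1 (-0.93), with equal cells (-0.99, adjusted p = 0.0759, edgeR), with the replicate block (-1.002, adjusted p = 0.0982, edgeR) and with DESeq2 (-1.02, adjusted p = 0.344). There the proportion to all cells overlapped (179% and 161% against 176% and 224%). The low stress values were not limited to the 3 called classes: cluster 14 had 124 and 107 against 33.1 and 58.0 CPM, and cDC1-like cells 36.2 and 34.8 against 15.7 and 15.5 CPM, without passing. Tob1 had an unadjusted p under 0.05 in 10 of 12 classes, where 4.17% to 11.8% of all genes per class had one. The classes share the same 4 libraries, whose sums helped choose Tob1, so these classes are not separate support. The share of genes that reach this in as many classes was not computed. NK or ILC1-like cells (115 and 92.8 against 95.0 and 41.8 CPM) and cluster 10 were the classes where the groups overlapped.

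**Figure D4:**
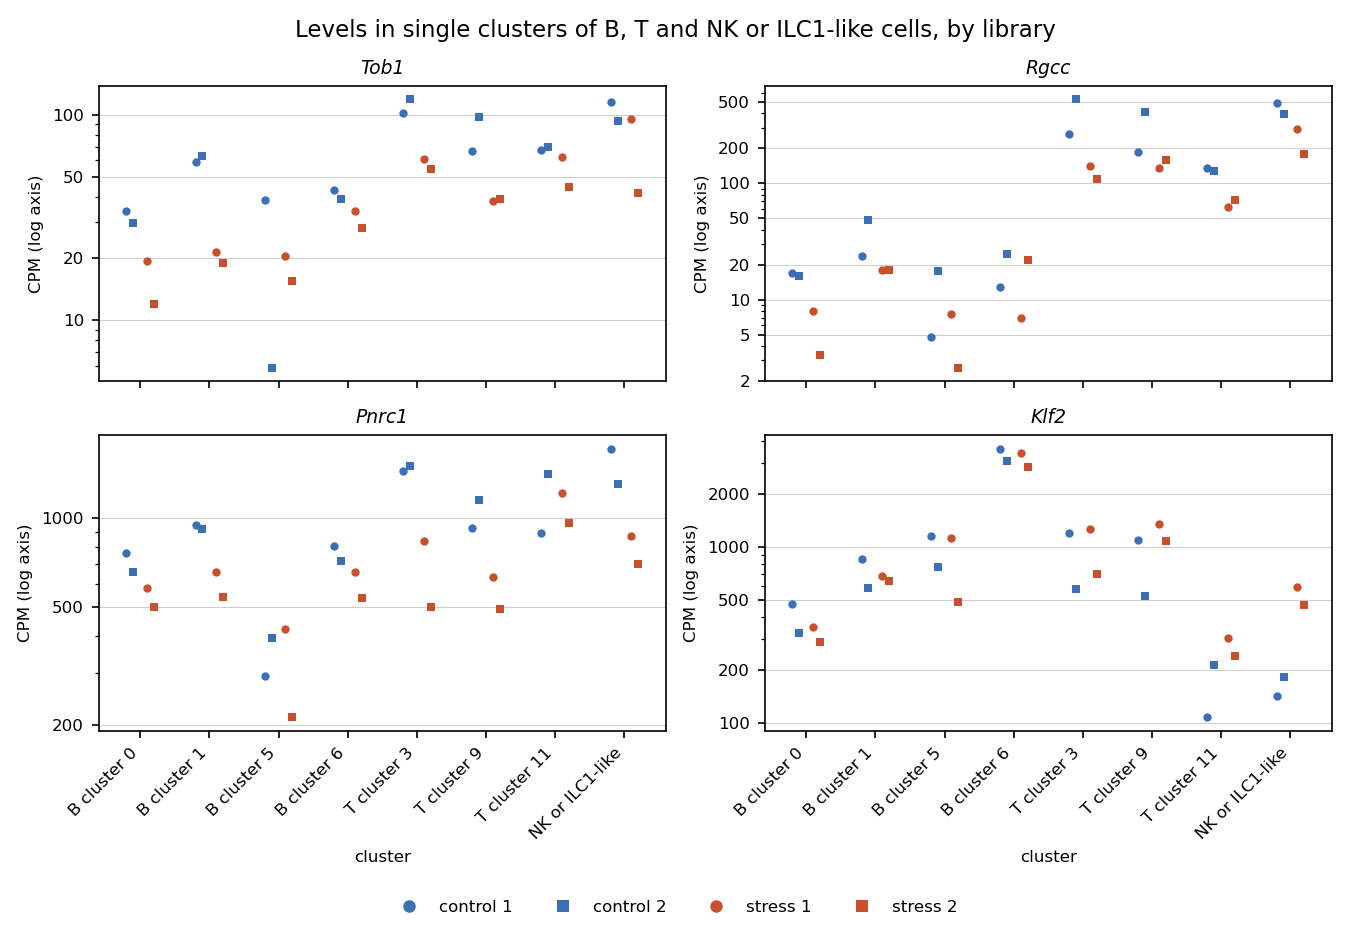
The panels plot the level of Tob1, Rgcc, Pnrc1 and Klf2 in CPM (log axis) in the clusters that make up the B cell-like and T cell-like classes and in NK or ILC1-like cells, with 1 point per library (blue control, red stress). Klf2 in NK or ILC1-like cells goes from 143 and 183 CPM in the controls to 589 and 467 CPM in the stress libraries, and B cluster 6 stands above the other clusters at 2829 to 3595 CPM.

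Pnrc1 was lower in 12 of 12 fitted values, from -0.90 to -0.05 with a median of -0.50, but passed in no class (lowest edgeR adjusted p = 0.107). It had an unadjusted p under 0.05 in 6 classes, against the same 4.17% to 11.8% of all genes per class. Here too the classes share their libraries, so that share is no background for a count of classes. In NK or ILC1-like cells Pnrc1 was at 1713 and 1306 CPM in the controls and 869 and 700 CPM in the stress libraries. In T cell-like cells it was at 1153 and 1322 against 912 and 705 CPM, and in B cell-like cells at 786 and 747 against 598 and 391 CPM. The groups did not overlap in these 3 classes, nor in 6 others.

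The remaining family members showed smaller differences. Btg1 was at -0.57 to -0.02 over the 12 classes, and in cluster 8, where it is highest, the groups overlapped (2905 and 2190 against 2599 and 2451 CPM). Tob2 ranged from -0.80 (NK or ILC1-like cells, 312 and 381 against 228 and 164 CPM, edgeR adjusted p = 0.341) to 0.15 (macrophage-like cells). Btg2 went both ways, from -0.47 in cDC1-like cells (815 and 768 against 656 and 498 CPM) to 0.38 in cDC2-like cells (640 and 701 against 823 and 984 CPM), and neither passed (edgeR adjusted p = 0.674 and 0.446). These p-values do not show that the levels were alike.

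Klf2 rose in NK or ILC1-like cells. It was at 143 and 183 CPM in the controls and 589 and 467 CPM in the stress libraries, on 119 control and 258 stress UMIs. Both stress values were above both controls, and the log2 change was 1.72 ± 0.25 (edgeR adjusted p = 0.000176), where 0.0738% of genes were called higher. It held under each alternative tried other than an equal number of cells per library (1.39, edgeR adjusted p = 0.0859), which left 48 cells in each. The class held 92, 112, 80 and 48 cells. Its summed NK or ILC1 markers were at 2518 and 4533 CPM in the controls and 4561 and 4241 CPM in the stress libraries, and its T cell markers at 984 and 911 against 960 and 1013 CPM, with overlapping groups for both. Control 1 was the lowest library for Eomes (27.1 CPM against 66.2 to 152 CPM), a factor of conventional NK cells, and for Gzma (363 against 1691 to 1887 CPM). Plasma cell markers were at 143 and 176 CPM in the controls and 361 and 4304 CPM in the stress libraries. Il22, Xcl1 and Gzmc were the first of the leading genes of the class, before Ncr1, and Il22 also led cluster 8. Il7r was at 679 and 550 CPM in the controls and 670 and 463 CPM in the stress libraries. The name of the class rests on markers and does not settle which cells it holds. The part of the makeup of the class in the Klf2 result was not tested.

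Of the 8 trafficking genes linked to Klf2, 6 were tested in NK or ILC1-like cells and none passed (edgeR, 0.0738% of genes called). S1pr1, a direct Klf2 target in T cells, was at 3.39 and 26.2 CPM in the controls and 23.8 and 31.3 CPM in the stress libraries, with few UMIs. Cd69, which opposes S1pr1 at the cell surface, was at 716 and 381 against 409 and 397 CPM.

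The stress change of Klf2 was then compared between classes, with these 3 pairs added after the data were seen. It was higher in NK or ILC1-like cells than in T cell-like cells by log2 1.58 ± 0.28 (edgeR adjusted p = 0.0168; 0.321% of genes called), than in cluster 7 by 1.77 ± 0.23 (edgeR adjusted p = 0.00348; 0.0312% called) and than in B cell-like cells by 1.43 ± 0.27 (edgeR adjusted p = 0.0134; 0.117% called). Over all genes these comparisons had 17, 2 and 10 calls. The difference from T cell-like cells ended without stress 2 (1.36, adjusted p = 0.0806, edgeR). That from B cell-like cells ended without control 1 (0.79), stress 1 (1.40) or stress 2 (1.43), and DESeq2 called neither it (1.48) nor the difference from cluster 7 (1.80, adjusted p = 0.159). In T cell-like cells Klf2 was at 878 and 532 against 976 and 601 CPM, and in B cell-like cells at 1083 and 540 against 1001 and 792 CPM, with overlap in both. In macrophage-like cells it was at 372 and 675 against 287 and 205 CPM (-1.12, edgeR adjusted p = 0.198), and it passed with no filter on low counts and without control 1 (-1.45) or control 2 (-0.73). The T cell markers of these sums, given above with Rgcc, were also highest in control 2 (651 CPM), and their part was not tested. For T cell-like, macrophage-like and plasma cell-like cells against B cell-like cells, no member's stress change differed past the threshold with edgeR (0.92%, 0.0437% and 0.662% of genes called).

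Klf2 also marked a part of the B cell-like cells that clustering without it had set apart. Cluster 6, led by the heat shock genes Hspa1a and Hspa1b, held 2829 to 3595 CPM of Klf2, against 288 to 475 CPM in cluster 0. Cluster 0 thus lay below the T cell-like range of 532 to 976 CPM. The Klf2 rank of B cell-like cells and the Klf2 differences from them include cluster 6 and were not computed without it. Cluster 6 made up 102 of 844 and 122 of 2828 B cell-like cells in the controls and 605 of 3577 and 214 of 1579 in the stress libraries. The Tob1 and Rgcc changes in B cell-like cells without this cluster were -1.31 and -1.58, both past the threshold.

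Other genes of the same pathways were followed by fixed lists in the 12 stress comparisons. None of the 158 pairs of a deadenylase or poly(A) binding gene and a class passed, nor any of 88 pairs for decapping factors, 45 for CDK inhibitors and 77 for pocket proteins and subunits of the DREAM repressor complex (edgeR; 0 to 100 of all genes passed per class). Of 155 pairs for quiescence regulators, 4 were lower. Klf4, a regulator of growth arrest, was lower in cluster 8 (-1.65) and cluster 14 (-1.83). Klf3 was lower in plasma cell-like cells (-0.89) and Ets1, a factor abundant in lymphocytes, in monocyte-like cells (-2.35). Summed T cell markers in monocyte-like cells were at 165 and 226 CPM in the controls and 44.8 and 43.9 CPM in the stress libraries, with 8 of 10 lower in both stress libraries, and their part was not tested. Trafficking genes had 3 calls in 75 pairs, with Ccr7 lower in T cell-like cells (-0.93) and higher in cDC1-like cells (1.20), and Itgb7, an integrin chain of gut homing, higher in cluster 7 (0.85).

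Immediate early and dissociation genes, among which are stress-activated factors of freshly prepared cells, had 8 lower and 3 higher calls in 290 pairs, and the median of the list was below 0 in each of the 12 classes (-0.56 to -0.05, against -0.02 to 0.00 for all genes). In cluster 7, 22 of 23 were lower, 3 past the threshold (Zfp36, -1.02, Nr4a1, -0.83, and Ier5, -0.81), and their summed level went from 21354 and 17338 to 14718 and 13344 CPM. In T cell-like cells the sums were 10051 and 9819 against 9839 and 9235 CPM, and in B cell-like cells 12759 and 10084 against 11657 and 8742 CPM. Their part in the Tob1 and Rgcc values was not tested. Cell cycle genes had 1 call each way in 106 pairs: Pclaf higher in cluster 7 (3.46) and Stmn1 lower in T cell-like cells (-1.43).

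As a description of pattern, Pearson correlations were taken over 48 sums (12 classes by 4 libraries) on log2(CPM + 10) for 5430 genes. The points share libraries and depth, so no p is given. Tob2 and Btg1 ran together (r = 0.92), and so did Tob1 and Pnrc1 (r = 0.86), whereas Rgcc had r = -0.32 with Klf2, r = -0.06 with Btg1 and r = 0.55 with Tob1. The genes most like Tob2 were Coq10b, Chd1 and Junb (r = 0.93 each). Those most like Btg1 were Ube2d3, Msn and Pfdn5 (r = 0.93 to 0.94), and Ier2 and Dock10 were among those most like Btg2 (r = 0.91 and 0.90). Pnrc1 was itself the gene most like Tob1, followed by Rnf166 and Dok2 (r = 0.82 and 0.81), and Jmy, Vps37b and Irf2bpl were most like Pnrc1 (r = 0.91 each). Klf2 was nearest to Zmynd11, Malat1 and Tsc22d3 (r = 0.70 to 0.74). Rgcc had the loosest company, with Cd28, Tnfsf11 and Odc1 at r = 0.65 to 0.68.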

How the data were processed

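The authors deposited filtered gene by barcode matrices of UMI counts, made with Cell Ranger (versions 5 and 5.0 are both named) against mm10, per the submitters' processing notes; the matrix headers give software 3.1.0. Kept barcodes had 500 UMIs or more, of which no more than 10% were mitochondrial. Doublets were marked with Scrublet (scanpy 1.11.5), whose automatic threshold was used only where it marked 0.5% to 20% of barcodes (control 2), and otherwise the expected share of 0.8% per 1000 barcodes was removed. The automatic threshold had marked 0.0120% to 0.234% in the other 3 libraries. Cells were clustered (2000 variable genes without the members, 30 components, 20 neighbours, Leiden at resolution 1.0). Myeloid clusters were split at resolution 2.0, a choice made after the data were seen, and names rest on fixed markers.

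Counts were summed per library and class and tested with edgeR 4.0.16 (quasi-likelihood, TMM, filterByExpr, Benjamini-Hochberg over all genes tested, threshold 0.05). Library was a block in comparisons between classes. In a 2 against 2 design an exact permutation test of a single gene cannot go below p = 0.333. The fits were tested on simulated data: with 9744 genes in B cell-like cells, edgeR recovered 81% of changes of 1 and 97% of changes of 2 (log2), with 9 false calls, and in the comparison of stress changes between classes, with 9980 genes, 51% and 92%, with 11 false calls. The simulation gave every gene the same fixed spread between libraries, not the spread of these data. It changed only genes above a minimum expected count, so its recovery and false calls need not hold for these data.

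All 7 members are named. Of the other lists, genes past the threshold are named, at most 5 per list and class, and for pattern the 3 genes most like each member. Some genes that this rule names are not reported here. The members and lists were chosen with earlier results of these data known. Alternatives were DESeq2 1.42.0, no filter on low counts, the replicate number as a block, each library left out, doublets kept, a mitochondrial limit of 25%, a marker gate per barcode, equal cells per library and, added after the data were seen, library size scaling, B cell-like cells without cluster 6 and extra class pairs.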

Additional observations from a re-analysis of the deposited data

Results flagged for a closer look

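The stress change of Klf2 differed between cell classes by a test of the difference itself. It was 1.58 higher (log2) in NK or ILC1-like cells than in T cell-like cells, 1.77 higher than in cluster 7 and 1.43 higher than in B cell-like cells. DESeq2 did not call the differences from cluster 7 (adjusted p = 0.159) and from B cell-like cells (adjusted p = 0.9998). With edgeR the difference from T cell-like cells lost its call without stress 2, and that from B cell-like cells without control 1 (0.79, adjusted p = 0.623), stress 1 or stress 2. The pairs were chosen after the Klf2 values were seen, and all 3 share the same 4 sums of NK or ILC1-like cells, which hold 48 to 112 cells each.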

How the results depend on the processing

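Leaving out macrophage-like cells, Rgcc was negative in each class under each alternative run over several classes (5 to 11), with 0 calls (marker gate per barcode) to 8. Tob1 was negative in all or all but 1 of 6 to 12 classes, with 1 to 5 calls. The number of members past the threshold, stress against control, moved as follows (counts for macrophage-like cells include Rgcc, which was chosen in part there). With DESeq2 it was 1 in B cell-like, 0 in T cell-like, 1 in cDC2-like and 1 in plasma cell-like cells and 0 in cluster 7, and between classes 1 for macrophage-like against monocyte-like, 2 for cluster 10 against germinal centre B cell-like and 0 for the Klf2 differences of NK or ILC1-like cells from cluster 7 and from B cell-like cells. With doublets kept it was 1 in B cell-like and 2 in NK or ILC1-like cells. With equal cells it was 0 in NK or ILC1-like and T cell-like cells and cluster 7, and 1 in cDC2-like cells. With no filter on low counts it was 2 in NK or ILC1-like, macrophage-like and plasma cell-like cells and 1 in cDC2-like and monocyte-like cells. With the marker gate per barcode it was 1 in B cell-like cells and 0 in T cell-like and macrophage-like cells.

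Leaving out each library in turn gave 1 to 3 members in B cell-like, NK or ILC1-like cells and cluster 7, 0 to 4 in T cell-like cells, 1 to 2 in cDC2-like and plasma cell-like cells and clusters 8 and 14, 0 to 3 in macrophage-like and 0 to 1 in monocyte-like cells. It gave 1 to 3 for macrophage-like against monocyte-like and 2 to 4 for cluster 10 against germinal centre B cell-like cells. For the stress change against B cell-like cells it gave 0 to 1 in macrophage-like, 0 to 3 in plasma cell-like and 0 to 1 in NK or ILC1-like cells, and 0 to 2 for NK or ILC1-like against T cell-like cells.

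Replicate numbers 1 and 2 are given in both groups, but no label ties equal numbers together, and deviations of equal-numbered libraries had r from -0.17 to 0.02 in the classes. With the replicate block the count of members was 1 in T cell-like, cDC2-like and monocyte-like cells and 0 in clusters 7 and 14 and macrophage-like cells, and the median number of calls per class was 17, against 22 without it.

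Reversed values were Tob1 (-0.53) and Pnrc1 (-1.29) for plasma cell-like against B cell-like cells with library size scaling; Btg2 (0.32, marker gate) and Tob2 (-0.0475 to 0.0922 as each library was left out, negative without control 2) for T cell-like against B cell-like cells; Tob2 for macrophage-like against monocyte-like cells (-0.0482 with library size scaling, -0.0458 with that scaling without immunoglobulin genes, -0.10 with no filter, -0.11 to 0.0542 as each library was left out, negative without stress 1) and for cluster 10 against germinal centre B cell-like cells (0.11 with DESeq2, 0.0109 with no filter, -0.0842 to 0.21 as each library was left out, positive without stress 1); and Rgcc in all dividing cells (-0.0481 to 0.30 as each library was left out, negative without stress 1). The marker gate for T cells also took in cells of clusters 7, 8 and 14. The causes were not tested.

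Calls over all genes per class had a median of 22 (0 to 100), against 14.5 with DESeq2, 141.5 with no filter, 10.0 with equal cells, 139.5 without control 1, 81.0 without control 2, 36.5 without stress 1 and 23.0 without stress 2. Over all kept cells there were 0 calls with edgeR, 2800 without control 1, 3303 without control 2 and 135 with DESeq2. There were 2 libraries per group and 8 to 507 UMIs of Tob1 per class and group. Recovery of changes under log2 1, in shallower classes or at the measured spread between libraries was not simulated.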
